A study of Bos taurus with 8 samples.

Results

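The genes described here build and serve the cilium and the sperm flagellum, and they were read in the testes of cattle before and after the onset of spermatogenesis. They were chosen by a rule on names, set with earlier results of these data known. All genes were taken whose symbol is CFAP, IFT, BBS, RSPH, DRC or SPAG, followed by a number and at most 1 letter. SPAG4, a protein of the nuclear envelope, was left out. This gave 65 of the 30983 genes listed, and 65 of the 65 passed the filter on low counts and were tested. The mature testes came from 3 Chinese Red Steppes bulls aged 24 months, and the immature testes from 3 calves of the same breed aged 1 day. Tissue of the testicular lobules was taken from slaughtered bulls and from castrated calves, so age and collection cannot be told apart. Each animal gave 1 mRNA library, made from RNA enriched with oligo(dT), and no animal received a treatment that the labels or the methods name.

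A cilium and a sperm tail share a core of microtubules, the axoneme, in which pairs of fused microtubules, the doublets, surround a central pair. Dynein arms on the doublets make them slide, and radial spokes, the nexin-dynein regulatory complex and the central apparatus turn this sliding into a beat. Intraflagellar transport (IFT) carries building blocks along the axoneme in trains of the IFT-A and IFT-B complexes, and the BBSome, a complex of Bardet-Biedl syndrome (BBS) proteins, links membrane cargo to these trains. In the testis, round spermatids grow the motile flagellum of the sperm, while many somatic cells carry an immotile primary cilium that lacks the central pair and the spokes. Not every SPAG gene belongs to a cilium: the name stands for sperm-associated antigen, and SPAG5, SPAG7, SPAG9 and SPAG11B are not known as parts of the axoneme.

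The 6 libraries held 14139087 to 15846257 counts. Levels are CPM, the count scaled to the library total times its TMM factor, and serve to compare libraries. Where genes are ranked or set against each other, their different lengths enter as well. Replicates of 1 age differed by more than sampling noise, with a chi-square per degree of freedom of 9.60 to 38.84 between pairs of libraries. At 5 CPM or more, 11 to 20 genes were over 3 times higher in a mature library than in the other mature libraries, against 194, 21 and 170 genes in immature replicates 1, 2 and 3, so that immature replicates 1 and 3 were unlike their group. CFAP100 was the only member among these genes, in immature replicate 1. Markers went with the labels, as 9 of 9 spermatid markers were higher in mature testes (summed level 8634 to 13912 CPM in mature and 6.66 to 7.67 CPM in immature libraries), and 9 of 10 Sertoli cell markers were lower (1591 to 1758 CPM in mature and 10011 to 13445 CPM in immature libraries). These are whole tissue samples, in which fewer cells of a type and less RNA per cell cannot be told apart.

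Ciliary and flagellar genes were higher in mature testes with few exceptions. In edgeR's quasi-likelihood test, in which a call needs an adjusted p under 0.05 and a log2 fold change above 1 or under −1, 57 of the 65 members rose and 1 fell, while 31.7% of all 19972 genes tested rose and 30.4% fell, together 62.0%. The gene that fell was CFAP73. The 7 genes without a call were IFT46, IFT88, BBS2, BBS4, RSPH4A, CFAP20 and SPAG9. The 3 mature libraries all lay above the 3 immature libraries for 61 members, against 40.9% of all genes tested, and all below them for CFAP73 alone, against 40.8%. The median log2 fold change of the members was 2.59, and that of all genes tested was −0.04.

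Summed over the 65 genes, the level was 6954, 6859 and 7774 CPM in mature replicates 1, 2 and 3, against 1188, 1067 and 1062 CPM in immature replicates 1, 2 and 3. The members thus took 0.676% to 0.73% of all counts in a mature library and 0.105% to 0.126% in an immature library, a ratio of the mean summed levels of 6.51. Leaving out immature replicate 1 left the calls at 57 higher and 1 lower.

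The rise differed in size between the role groups, with overlap and without a test of the difference. The 22 transport genes (IFT and BBS) had a median log2 fold change of 1.66 and none above 3, whereas the 38 genes of the axoneme had a median of 4.17, with 28 above 3 and 17 above 5. Axoneme genes such as RSPH4A, CFAP20, CFAP126, RSPH3 and CFAP54 lay within the range of the transport genes, 0.14 to 2.96. Among all genes tested, 14.8% lay above 3 and 7.49% above 5. The summed level of the transport genes was 1942 ± 104 CPM in mature and 615 ± 37.8 CPM in immature testes (SD, n = 3 each), a ratio of 3.16. That of the axoneme genes was 4446 ± 372 CPM in mature and 289 ± 34.0 CPM in immature testes, a ratio of 15.4. The axoneme genes as counted here take in 8 further CFAP genes, some of them less well placed. Of these, CFAP97 and CFAP36 were highest, with means of 463 and 412 CPM in mature and 49.4 and 42.1 CPM in immature testes.

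**Figure D1:**
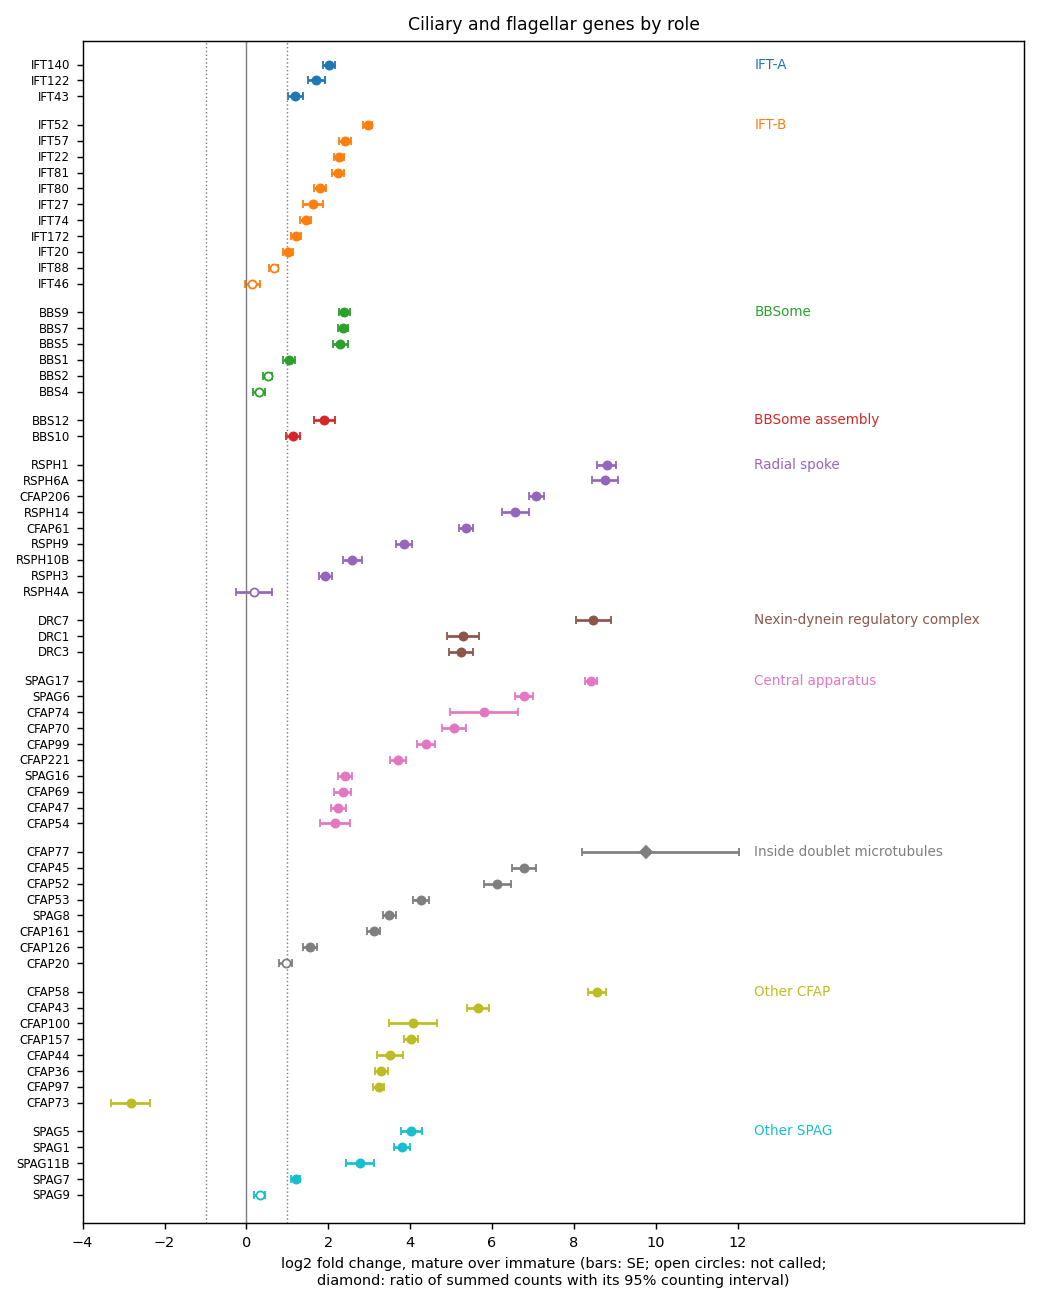
The horizontal axis gives the log2 fold change of mature over immature testes for each of the 65 genes, grouped by role, with its SE as a bar, and open circles mark the 7 genes without a call. CFAP77 is drawn as a diamond, at the ratio of its summed counts with the 95% counting interval, and the 22 transport genes at the top lie under 3 while 28 of the 38 axoneme genes lie above 3.

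IFT-A is the complex that carries the return traffic of the cilium and brings membrane proteins in. All 3 of its members in the list rose. IFT122 was at 172, 216 and 234 CPM in mature libraries, against 79.9, 65.3 and 45.1 CPM in immature libraries. IFT140 was at 110, 113 and 127 CPM in mature libraries, against 33.6, 25 and 28.3 CPM in immature libraries. The groups did not overlap for either gene. The log2 fold change in edgeR's test was 1.71 (SE 0.22, adjusted p = 0.000125) for IFT122 and 2.01 (SE 0.14, adjusted p = 3.37e-06) for IFT140. IFT43, a small subunit, had 1.2 (SE 0.18) on the log2 scale, and its call was lost with upper-quartile scaling at 0.99. It was also lost with glmTreat, which tests against the size threshold (adjusted p = 0.0911). In the RefSeq annotation of ARS-UCD2.0, IFT43 overlaps TGFB3, which was at 37.5, 34.8 and 32.2 CPM in mature libraries and 35.5, 44.3 and 44.7 CPM in immature libraries. The part of TGFB3 reads in the counts of IFT43 was not tested.

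IFT-B forms the backbone of the trains that run to the tip. Of its 11 members 9 rose, by 1.02 to 2.96 on the log2 scale. IFT52, a core subunit, was at 335, 336 and 366 CPM in mature libraries, against 49.6, 43.7 and 40.3 CPM in immature libraries. The mature libraries stood far above the immature ones with little spread in either group, a log2 fold change of 2.96 (SE 0.12, edgeR adjusted p = 1.47e-07). IFT57, a subunit of the peripheral part of the complex, was at 180, 176 and 175 CPM in mature libraries, against 31.9, 28.5 and 40.0 CPM in immature libraries. Its log2 fold change was 2.40 (SE 0.14, edgeR adjusted p = 1.24e-06), and IFT81 and IFT22, further IFT-B subunits, gave 2.24 and 2.26. IFT172, IFT74 and IFT27, the last a small GTPase of the complex, gave 1.21, 1.44 and 1.62, and IFT80 gave 1.8. IFT20, which also sits at the Golgi apparatus, was called at 1.02 (SE 0.13, edgeR adjusted p = 0.000112), close to the threshold, and the call was lost without immature replicate 2, at 0.92. The call was also lost with library totals alone (0.95), with upper-quartile scaling (0.81) and with glmTreat (adjusted p = 0.341).

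Of the IFT-B genes, 2 were not called. IFT88, the core subunit whose mouse hypomorph is the Tg737 mutant with short cilia, was at 43.6, 43.5 and 45.2 CPM in mature libraries, against 25.4, 28.7 and 29.5 CPM in immature libraries. The groups did not overlap, and the difference of 0.66 (SE 0.12, edgeR adjusted p = 0.000996) passed the p threshold but not the threshold on size. IFT46, a core subunit that in Chlamydomonas carries outer dynein arms into the flagellum, was at 33.6, 27.9 and 34.4 CPM in mature libraries, against 36.3, 26.5 and 24.1 CPM in immature libraries. Here the groups overlapped, and the log2 fold change was 0.14 (SE 0.18, edgeR adjusted p = 0.496), turning to −0.068 with upper-quartile scaling, which moves the median of all genes by −0.20.

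The BBSome is an octamer, of which 6 subunits are named BBS in the table. BBS7, BBS9 and BBS5 rose by similar amounts. BBS7, a beta-propeller subunit, was at 67.7, 69.9 and 66.7 CPM in mature libraries, against 13.4, 12.7 and 13.7 CPM in immature libraries. BBS9, another such subunit, was at 42.5, 43.2 and 43.9 CPM in mature libraries, against 7.81, 7.96 and 8.99 CPM in immature libraries. Both groups were tight, and the log2 fold changes were 2.35 (SE 0.12, edgeR adjusted p = 4.45e-07) for BBS7 and 2.39 (SE 0.14, edgeR adjusted p = 8.76e-07) for BBS9. BBS5, a subunit that binds membrane lipids, had 2.30 (SE 0.18).

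Other BBSome subunits moved little. BBS2, a core subunit, was at 104, 102 and 111 CPM in mature libraries, against 72.1, 78.0 and 71.9 CPM in immature libraries. BBS4, a subunit that also binds centriolar satellites, was at 28.9, 25.3 and 29.8 CPM in mature libraries, against 19.8, 23.9 and 24.3 CPM in immature libraries. The groups did not overlap for either gene, but neither was called, with log2 fold changes of 0.51 (SE 0.10, edgeR adjusted p = 0.00164) and 0.31 (SE 0.15, edgeR adjusted p = 0.0828). BBS1, which contacts the small GTPase ARL6, was called at 1.04 (SE 0.15, edgeR adjusted p = 0.000246), and this call was lost without immature replicate 2 (0.97), without immature replicate 3 (0.99) and without mature replicate 3 (0.99). The call of BBS1 was also lost with library totals alone (0.97), with upper-quartile scaling (0.83) and with glmTreat (adjusted p = 0.291). BBS12 and BBS10, chaperonin-like proteins that help to assemble the BBSome, rose. BBS12 was at 40.1, 30.4 and 38.6 CPM in mature libraries, against 11.9, 11.3 and 5.88 CPM in immature libraries, and BBS10 at 16.9, 17.8 and 15.4 CPM in mature libraries, against 6.81, 8.60 and 7.33 CPM in immature libraries. Their log2 fold changes were 1.91 (SE 0.27) and 1.14 (SE 0.18). BBS10 lost its call with upper-quartile scaling (0.93) and with glmTreat (adjusted p = 0.148). Its log2 fold change was 0.95 without immature replicates 1 and 3. MKKS, of the same kind but outside the naming pattern, went the other way. It was at 27.5, 30.3 and 28.1 CPM in mature libraries, against 49.7, 49.5 and 48.2 CPM in immature libraries. The groups did not overlap, without a call at −0.78 (SE 0.11, edgeR adjusted p = 0.000265).

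**Figure D2:**
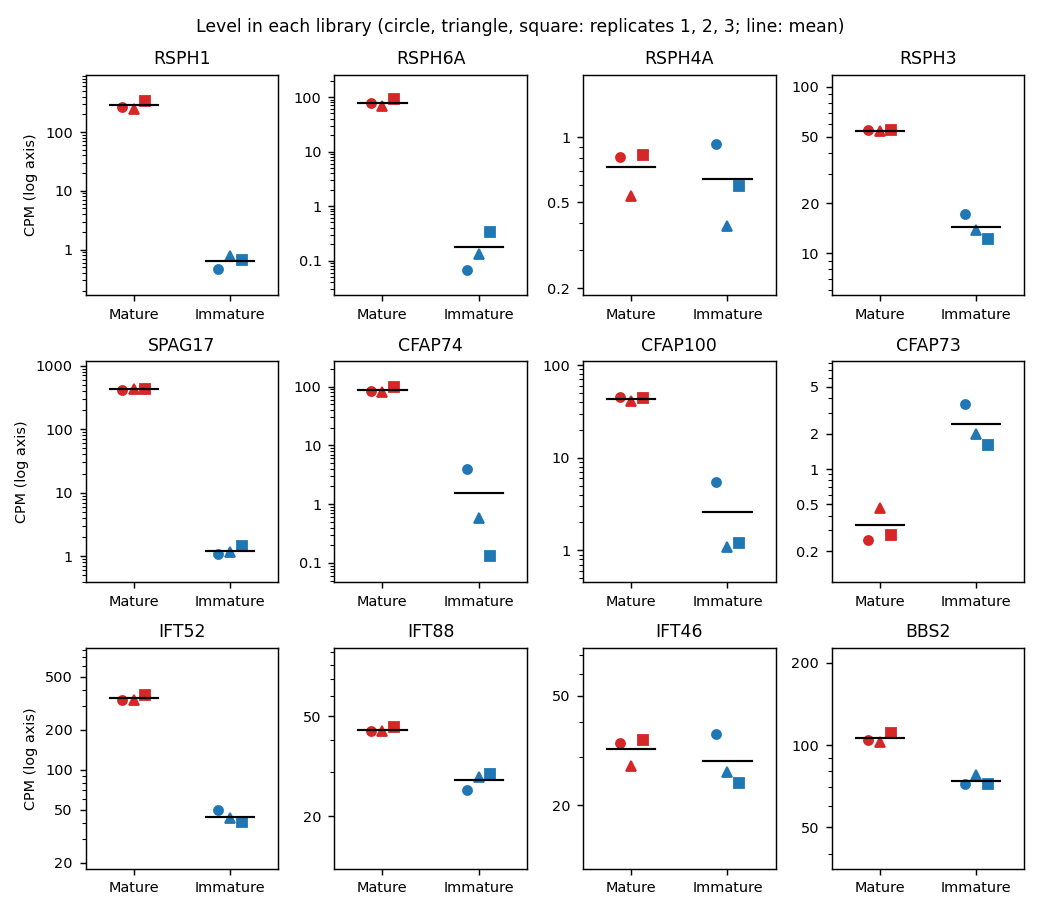
Each panel plots 1 gene in CPM on a log axis, with mature libraries on the left, immature libraries on the right, a symbol for each replicate and a line at the group mean. RSPH1 lies between 249.9 and 343 CPM in mature and under 1 CPM in immature testes, RSPH4A and IFT46 overlap between the ages, and CFAP73 lies under 0.5 CPM in mature and above 1 CPM in immature testes.

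The radial spokes reach from the doublets to the central pair. Of their 9 members 8 rose, with log2 fold changes of 1.92 to 8.80. RSPH1, a protein of the spoke head, was at 267, 249.9 and 343 CPM in mature libraries, against 0.468, 0.776 and 0.661 CPM in immature libraries. CFAP61, part of the calmodulin- and spoke-associated complex at the spoke base, was at 199.8, 195 and 207 CPM in mature libraries, against 5.88, 3.82 and 4.89 CPM in immature libraries. The groups stood apart for both, with edgeR log2 fold changes of 8.80 (SE 0.23, adjusted p = 2.17e-08) and 5.36 (SE 0.17, adjusted p = 5e-08). In the RefSeq annotation of ARS-UCD2.0, RSPH1 overlaps SLC37A1, a sugar phosphate transporter gene, which was at 124, 138 and 172 CPM in mature libraries and 13.7, 8.80 and 9.85 CPM in immature libraries. Whether reads were counted by strand was not stated.

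RSPH4A and RSPH6A are paralogous proteins of the spoke head, the first needed in airway cilia and the other in mouse sperm. RSPH6A had 3600 counts over the 3 mature libraries and 8 over the 3 immature libraries, or 78.8, 68.9 and 90.3 CPM in mature libraries and 0.0668, 0.129 and 0.330 CPM in immature libraries. Its log2 fold change of 8.75 (SE 0.32, edgeR adjusted p = 8.65e-08) was 9.53 without immature replicate 3. RSPH4A had 13, 8 and 12 counts in mature libraries, against 14, 6 and 9 counts in immature libraries. The groups overlapped at under 1 CPM, and its log2 fold change was 0.18 (SE 0.44, edgeR adjusted p = 0.714), turning to −0.024 with upper-quartile scaling and to −0.084 without immature replicate 2. Within a library, RSPH6A had 96.9, 129 and 109 times the counts of RSPH4A in mature testes, against 0.0714, 0.333 and 0.556 times in immature testes, a pair chosen after its values were seen.

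Further spoke genes differed widely in their immature level. RSPH3, which anchors the regulatory subunit of protein kinase A in the spoke stalk, was at 54.9, 53.9 and 54.8 CPM in mature libraries, against 17.3, 13.7 and 12.1 CPM in immature libraries. CFAP206, a protein at the base of a spoke, was at 120.1, 110.4 and 110.5 CPM in mature libraries, against 1.07, 0.712 and 0.727 CPM in immature libraries. RSPH3 was thus well detected at 1 day, with a log2 fold change of 1.92 (SE 0.16), while CFAP206 was near 1 CPM, with 7.07 (SE 0.19), both past the thresholds in edgeR's test. RSPH14, RSPH9 and RSPH10B, of which RSPH9 belongs to the head, gave 6.56, 3.84 and 2.59.

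The nexin-dynein regulatory complex ties neighbouring doublets together and contacts the dyneins. All 3 members in the list rose, and none had a mean above 4 CPM in immature testes. DRC1, a base subunit needed to assemble the complex, was at 113, 132 and 141 CPM in mature libraries, against 5.68, 2.13 and 2.05 CPM in immature libraries. DRC7 was at 104, 97.1 and 183 CPM in mature libraries, against 0.267, 0.582 and 0.198 CPM in immature libraries. DRC3 was at 63.7, 72.1 and 80.7 CPM in mature libraries, against 1.80, 2.78 and 1.12 CPM in immature libraries. The log2 fold changes in edgeR's test were 5.29 (SE 0.39, adjusted p = 9.58e-06) for DRC1, 8.47 (SE 0.43, adjusted p = 8.48e-07) for DRC7 and 5.24 (SE 0.29, adjusted p = 8.24e-07) for DRC3. Without immature replicate 1, where DRC1 was highest of the immature libraries, its value was 5.92.

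The central apparatus is the central pair of microtubules with its projections, and it is found only in motile cilia and flagella. All 10 of its members rose, with a median log2 fold change of 4.04. SPAG17, a scaffold of a projection, was at 411, 424 and 431 CPM in mature libraries, against 1.07, 1.16 and 1.45 CPM in immature libraries. SPAG6, the homologue of PF16 of Chlamydomonas, was at 52.1, 60.5 and 64.0 CPM in mature libraries, against 0.601, 0.388 and 0.595 CPM in immature libraries. CFAP70, whose loss impairs sperm motility in humans, was at 233, 188 and 251 CPM in mature libraries, against 9.15, 4.08 and 6.94 CPM in immature libraries. No group overlapped, and the edgeR log2 fold changes were 8.41 (SE 0.15, adjusted p = 8.99e-09), 6.78 (SE 0.21, adjusted p = 4.21e-08) and 5.06 (SE 0.29, adjusted p = 1.51e-06) for SPAG17, SPAG6 and CFAP70.

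Not all projection genes were near 0 at 1 day. CFAP54 was at 108, 97.0 and 109 CPM in mature libraries, against 29.9, 29.4 and 10.5 CPM in immature libraries. CFAP74 was at 85.3, 80.9 and 96.9 CPM in mature libraries, against 4.01, 0.582 and 0.132 CPM in immature libraries, where it had 60, 9 and 2 counts. These genes, chosen after their values were seen, had log2 fold changes of 2.17 (SE 0.37, edgeR adjusted p = 0.00108) and 5.80 (SE 0.83, edgeR adjusted p = 0.000703). The value of CFAP74 was 7.89 without immature replicate 1. SPAG16, the homologue of PF20 of Chlamydomonas, had 2.42, and CFAP69, CFAP47, CFAP221 and CFAP99 had 2.35, 2.25, 3.70 and 4.38.

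Proteins inside the doublets, the microtubule inner proteins, hold the tubulin lattice together. Of 8 members 7 rose. CFAP53, which in humans is also tied to left-right asymmetry, was at 140, 133 and 189 CPM in mature libraries, against 9.42, 6.99 and 7.60 CPM in immature libraries. CFAP45 was at 106, 104 and 121 CPM in mature libraries, against 1.54, 0.518 and 0.925 CPM in immature libraries. The groups were far apart for both, and the edgeR log2 fold changes were 4.27 (SE 0.20, adjusted p = 2.97e-07) and 6.79 (SE 0.29, adjusted p = 2.14e-07). CFAP77 was at 52.5, 60.6 and 58.0 CPM in mature libraries, against 0.134, 0.0647 and 0 CPM in immature libraries. It had 2585 counts over the 3 mature libraries and 3 over the 3 immature libraries, a log2 ratio of 9.75 with an exact 95% counting interval of 8.21 to 12.03 that covers counting error only. Of the 3 immature counts 2 were in immature replicate 1, and the fitted log2 fold change, which here depends on the prior count, was 9.59 with and 10.43 without that library. Of the others, CFAP52 had 6.13, SPAG8 3.49, CFAP161 3.11 and CFAP126, known as Flattop, 1.54.

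CFAP20 lies at the inner junction that closes the doublet and was not called. It was at 58.8, 55.3 and 54.3 CPM in mature libraries, against 27.8, 34.7 and 24.0 CPM in immature libraries. The groups did not overlap, and the log2 fold change of 0.96 (SE 0.16, edgeR adjusted p = 0.000492) sat just under the size threshold. It was called at 1.11 without immature replicate 2, at 1.04 without mature replicate 3 and at 1.05 with DESeq2.

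The remaining 8 CFAP genes belong to tethers, to complexes of the inner dyneins or to parts less well placed, and 7 of them rose. CFAP97, a homologue of the fly protein Hemingway, was at 409.9, 458 and 521 CPM in mature libraries, against 46.9, 46.4 and 55.0 CPM in immature libraries. CFAP36, a binding partner of the small GTPase ARL3, was at 413, 384 and 439 CPM in mature libraries, against 39.3, 35.9 and 50.9 CPM in immature libraries. Both were well detected at 1 day, with edgeR log2 fold changes of 3.23 (SE 0.14, adjusted p = 1.85e-07) and 3.29 (SE 0.16, adjusted p = 3.4e-07).

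CFAP58, needed for the sperm tail in mice and humans, was at 125, 107 and 127 CPM in mature libraries, against 0.401, 0.323 and 0.198 CPM in immature libraries. CFAP43 was at 144, 159.7 and 189 CPM in mature libraries, against 4.54, 3.17 and 2.05 CPM in immature libraries. Their log2 fold changes in edgeR's test were 8.57 (SE 0.22, adjusted p = 1.91e-08) and 5.65 (SE 0.28, adjusted p = 4.57e-07). CFAP43 and CFAP44 work together in the tether of the dynein heads, and CFAP44 changed less, by 3.51 (SE 0.31). In counts, CFAP43 was 0.984, 1.21 and 1.03 times CFAP44 in mature libraries and 0.235, 0.244 and 0.252 times in immature libraries, so that the ratio was alike within an age and different between the ages. In ARS-UCD2.0, CFAP44 overlaps BOC, which was at 14.1, 14.5 and 13.2 CPM in mature libraries and 43.6, 39.3 and 70.2 CPM in immature libraries. The part of BOC reads in the counts of CFAP44 was not tested. CFAP157 had 4.02.

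CFAP73 was the only member that fell. It had 4, 7 and 4 counts in mature libraries, against 54, 31 and 24 counts in immature libraries, or 0.331 ± 0.120 CPM in mature and 2.40 ± 1.07 CPM in immature testes (SD, n = 3 each). The log2 fold change was −2.83 (SE 0.47, edgeR adjusted p = 0.000608), and it stayed between −3.13 and −2.42 when single libraries were left out. In Chlamydomonas the homologues of CFAP73 and CFAP100 form a complex that regulates inner dynein arms. CFAP100 rose: it was at 45.5, 40.9 and 44 CPM in mature libraries, against 5.48, 1.10 and 1.19 CPM in immature libraries, a log2 fold change of 4.07 (SE 0.59, edgeR adjusted p = 0.000585) that was 5.23 without immature replicate 1.

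The counts of CFAP100 were 182, 87.3 and 159.8 times those of CFAP73 in mature libraries, against 1.52, 0.548 and 0.75 times in immature libraries. In ARS-UCD2.0, CFAP73 overlaps DDX54, an RNA helicase gene expressed in both ages. DDX54 was at 30.3, 32.0 and 31.5 CPM in mature libraries and 43.4, 53.8 and 55.0 CPM in immature libraries. It was thus lower in mature testes too, without a call at −0.70 (SE 0.13, edgeR adjusted p = 0.00126). Among the immature libraries, DDX54 was highest in replicate 3 and CFAP73 in replicate 1. Without a stated strand setting, reads of overlapping genes cannot be separated here, and their part in the values of CFAP73 was not tested.

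**Figure D3:**
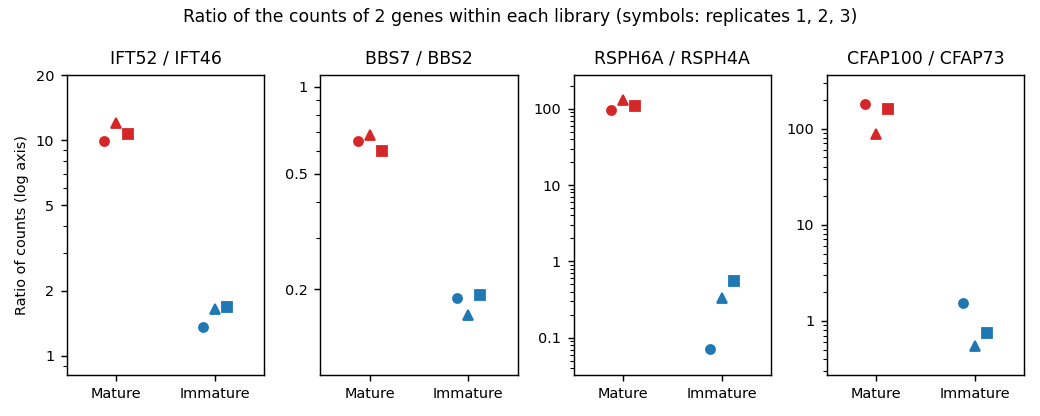
Each panel plots, on a log axis, the ratio of the counts of 2 genes within each library, mature on the left and immature on the right, with a symbol for each replicate. The pairs were chosen after their values were seen, and the groups do not overlap in any panel: IFT52 over IFT46 lies between 9.96 and 12.1 in mature and between 1.37 and 1.68 in immature testes.

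The same kind of ratio was set for the other complexes in which members moved unequally. IFT52 had 9.96, 12.1 and 10.6 times the counts of IFT46 in mature libraries, against 1.37, 1.65 and 1.68 times in immature libraries. BBS7 had 0.650, 0.684 and 0.602 times the counts of BBS2 in mature libraries, against 0.186, 0.164 and 0.191 times in immature libraries. Such a ratio needs no scaling between libraries and shows unequal change of the genes of a pair, not which of them changed.

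The 5 SPAG genes outside the axoneme groups were a mixed set. SPAG5, a protein of the mitotic spindle, was at 294, 312 and 353 CPM in mature libraries, against 27.3, 13.5 and 18.3 CPM in immature libraries. SPAG1, a cytoplasmic factor in the assembly of dynein arms, was at 211, 222 and 200.2 CPM in mature libraries, against 15.6, 11 and 18.8 CPM in immature libraries. The edgeR log2 fold changes were 4.02 (SE 0.26, adjusted p = 2.57e-06) and 3.80 (SE 0.20, adjusted p = 5.67e-07), with no overlap of the groups.

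SPAG9, the scaffold protein JIP4 of the JNK pathway, was at 140, 117 and 136 CPM in mature libraries, against 93.2, 104 and 117 CPM in immature libraries. Mature replicate 2 lay at the level of immature replicate 3, and the log2 fold change of 0.32 (SE 0.13, edgeR adjusted p = 0.0453) was under the size threshold. SPAG7 had 1.2 and lost its call with upper-quartile scaling, at 0.99. SPAG11B, a defensin-like peptide best known from the epididymis, was at 5.31, 6.03 and 5.03 CPM in mature libraries, against 1.14, 0.647 and 0.595 CPM in immature libraries, a log2 fold change of 2.77 (SE 0.34, edgeR adjusted p = 8.44e-05). It overlaps another gene of the defensin region, LOC783025, in ARS-UCD2.0, so its counts are uncertain.

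Ciliary genes that the naming pattern does not reach were counted in the same fit. The lists used here and in the next paragraphs were made with earlier results of these data known. Of all genes tested 31.7% rose and 30.4% fell. Of 30 axoneme genes with other names, 30 rose, with a median log2 fold change of 4.46. ROPN1L, a spoke-bound protein of the ropporin family, had 8.73 (SE 0.21), MORN3 8.70 (SE 0.23) and TCTE1, a subunit of the nexin-dynein regulatory complex, 8.51 (SE 0.27). Of 15 IFT and BBS subunits with other names 9 rose in edgeR's test and the other 6 were not called. TTC30B, BBIP1 and TTC30A were the largest, at 3.39, 2.72 and 2.42, of which TTC30A and TTC30B are near-identical copies that the counting may have split. WDR19, the IFT-A subunit also called IFT144, was at 81.0, 63.8 and 84.8 CPM in mature libraries, against 149, 105 and 93.7 CPM in immature libraries, without a call at −0.60 (SE 0.19, edgeR adjusted p = 0.0192). The counts of IFT140 were 1.36, 1.77 and 1.5 times those of WDR19 in mature libraries and 0.225, 0.237 and 0.303 times in immature libraries.

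The motors that pull the IFT trains rose in 8 of 10 cases. KIF17, a kinesin that in the mouse testis also carries the CREM partner ACT, was at 1781, 2160 and 2417 CPM in mature libraries, against 5.54, 7.38 and 9.38 CPM in immature libraries. Its log2 fold change was 8.15 (SE 0.25, edgeR adjusted p = 3.93e-08), with KIF3B of the heterotrimeric kinesin at 3.36 and TCTEX1D2, a light chain of the IFT dynein, at 2.63. KIF3C, a kinesin subunit expressed mainly in neurons, had −0.92 (SE 0.20) without a call.

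The base of the cilium was less uniform. Of 12 genes of the distal appendages and the cap that dock the mother centriole and start the axoneme, 11 rose, with KIF24 at 3.00, TTBK2 at 2.31 and CEP83 at 2.19 on the log2 scale. With upper-quartile scaling C2CD3 (0.99) and FBF1 (0.87) lost their calls, and FBF1 also did so without immature replicate 3 (0.98). Of 22 genes of the transition zone, the gate between cilium and cell body, 11 rose and 2 fell, with a median of 1.02. RPGRIP1 was at 386, 408 and 478 CPM in mature libraries, against 2.54, 3.11 and 2.97 CPM in immature libraries, a log2 fold change of 7.20 (SE 0.16, edgeR adjusted p = 1.44e-08). CC2D2A, whose loss causes Joubert and Meckel syndromes, was at 9.94, 12.9 and 8.54 CPM in mature libraries, against 48.0, 36.4 and 31.4 CPM in immature libraries, a log2 fold change of −1.88 (SE 0.22, edgeR adjusted p = 6.62e-05). The number that fell was 1 without mature replicate 3.

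**Figure D4:**
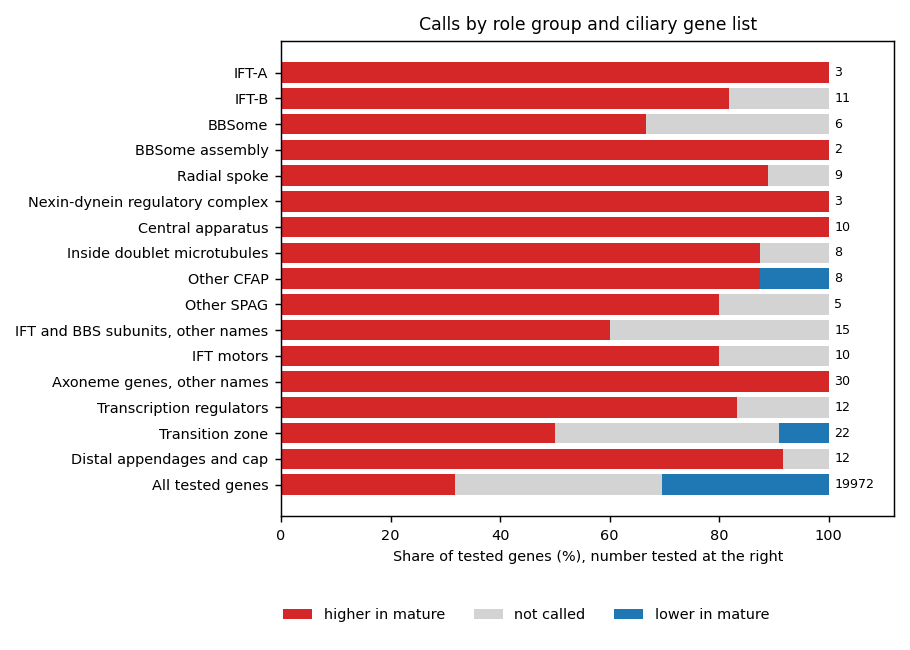
Bars give the share of tested genes that were higher in mature testes, not called or lower, for the role groups of the 65 members, 6 further ciliary lists and all 19972 genes tested, with the number tested beside each bar. Of the axoneme genes with other names 30 of 30 rose, of the transition zone genes 11 of 22 rose and 2 fell, and of all genes 31.7% rose and 30.4% fell.

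Transcription factors that switch on ciliary or spermatid genes were mostly higher as well, in 10 of 12 tested. RFX4 was at 260.2, 262 and 283 CPM in mature libraries, against 0.334, 1.29 and 0.991 CPM in immature libraries, with a log2 fold change of 8.24 (SE 0.31, edgeR adjusted p = 1.15e-07). SOX30 and CREM, which act in mouse spermatids, had 6.54 and 5.58. RFX2, which in mice drives the flagellar genes of spermatids, was at 493, 433 and 606 CPM in mature libraries, against 7.68, 9.32 and 82.2 CPM in immature libraries. Immature replicate 3 lay well above the other immature libraries, and the log2 fold change of 3.95 (SE 0.98, edgeR adjusted p = 0.00929) was 5.90 without it.

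GMNC, which starts the program of cells with many motile cilia, had 5.34 (6.28 without immature replicate 1), and MCIDAS and CCNO, which act after it in those cells, were at or near 0, with at most 0.125 and 0 CPM in mature and 0.134 CPM in immature libraries. TP73, RFX1, RFX3 and MYB had 3.19, 2.18, 1.39 and 1.33, and E2F4 and E2F5, which help to amplify centrioles, were not called at 0.73 and 0.11, of which E2F5 turned to −0.088 with upper-quartile scaling.

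FOXJ1, the master regulator of motile cilia, was at 20.3, 14.6 and 28.2 CPM in mature libraries, against 6.41, 0.453 and 0.330 CPM in immature libraries. Its log2 fold change of 3.13 (SE 1.02, edgeR adjusted p = 0.0275) was 5.70 without immature replicate 1, the library in which it was high. The call was lost without mature replicate 1 (3.2, edgeR adjusted p = 0.0519) and without mature replicate 3 (2.91, edgeR adjusted p = 0.0703). In immature replicate 1, 24 of the 38 axoneme members reached their highest level among the immature libraries, against 31.5% of all genes tested. Of the 38 axoneme members 5 exceeded both other immature libraries by over 2 times there, against 0 of the 22 transport members and 4.02% of all genes. CFAP77 was among these, with 2, 1 and 0 counts in immature replicates 1, 2 and 3. Transport members were at 5.88 CPM or more in every immature library, while many axoneme members were near or under 1 CPM, where counting noise is larger. The part of such noise in the difference was not tested. On the log2 scale of CPM + 0.1, immature replicate 1 lay above the mean of immature replicates 2 and 3 by a median of 0.38 for axoneme and 0.07 for transport members, with −0.04 for all genes. Immature replicate 3 against the mean of immature replicates 1 and 2 gave a median of −0.31 for axoneme and −0.06 for transport members. As immature replicate 1 is part of that mean, these medians cannot tell which of the immature libraries differs.

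The ducts next to the testis have a ciliated epithelium too, as the efferent ducts carry multiciliated cells, while the principal cells of the epididymis bear immotile stereocilia. Of 9 markers of the epididymis and efferent ducts with a count in an immature library, 8 were highest in immature replicate 1. Their summed level was 136 to 146 CPM in mature libraries, and 616, 38.8 and 40.1 CPM in immature replicates 1, 2 and 3. DEFB119, a defensin gene, made most of the sum in the mature libraries, with 114, 129 and 117 CPM there and 1.2, 0.518 and 0.132 CPM in immature libraries. WFDC2 made most of the sum in immature replicate 1, with 0.125, 0.268 and 0 CPM in mature libraries and 469, 6.99 and 0.396 CPM in immature libraries. PAX2 was at 1.25, 1.14 and 0.482 CPM in mature libraries and 62.8, 4.27 and 3.17 CPM in immature libraries, and PAX8 at 3.19, 2.75 and 3.37 CPM in mature libraries and 33.7, 10.1 and 8.33 CPM in immature libraries. In all these genes immature replicate 1 stood above the other immature libraries, whereas CST11 was at 2.38, 1.74 and 1.24 CPM in mature libraries and had counts only in replicate 2 of the immature libraries. CFTR was at 3.38, 3.48 and 2.48 CPM in mature libraries and 14.9, 0.518 and 0.264 CPM in immature libraries, while RNASE9 was at 0 in 6 of 6 libraries. Of 10 markers of multiciliated epithelium, FOXJ1 and GMNC among them, 6 were highest in immature replicate 1. Some of these were near 0: MCIDAS and CCNO each had 2, 0 and 1 counts in immature replicates 1, 2 and 3, and GMNC had 6, 2 and 1. The summed level of the 10 markers was 1865 to 2370 CPM in mature libraries, and 264, 233 and 349 CPM in immature replicates 1, 2 and 3. TUBB4B made most of this sum, with 1479, 1401 and 1730 CPM in mature libraries and 225, 205 and 303 CPM in immature libraries. CFAP74, CFAP100 and DRC1 were the members highest in immature replicate 1 relative to the other immature libraries. The part of duct and multiciliated cells in their immature levels was not tested.

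**Figure D5:**
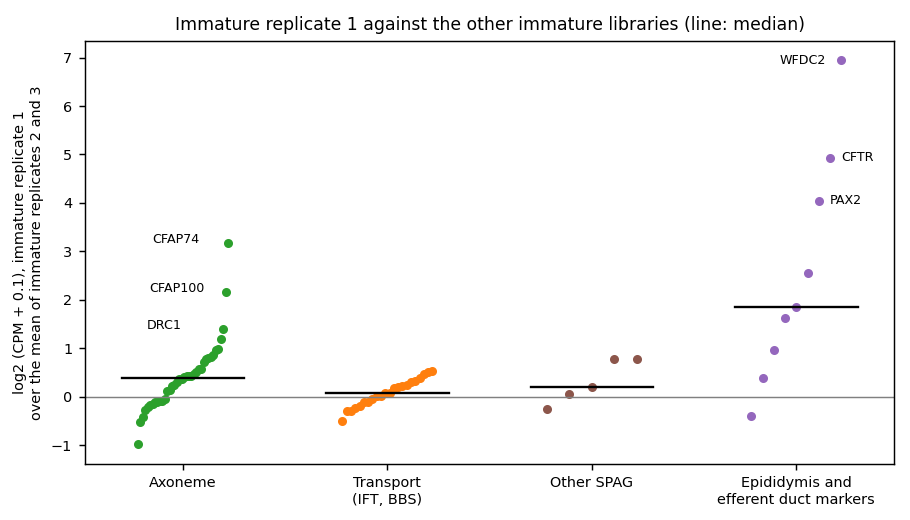
The vertical axis gives, for each gene, the log2 of CPM + 0.1 in immature replicate 1 over the mean of immature replicates 2 and 3, for axoneme, transport and other SPAG members and for 9 epididymis and efferent duct markers (RNASE9, at 0 throughout, is left out), with a line at each median. The axoneme genes have a median of 0.38 with CFAP74, CFAP100 and DRC1 at the top, the transport genes a median of 0.07, and WFDC2 lies highest of the duct markers.

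Over the 65 members the median coefficient of variation was 9.03% in mature and 18.8% in immature testes, against 12.8% and 18.8% over all genes tested. Mature replicate 3 was the highest mature library for 43 of the 65 members, and mature replicates 1 and 2 for 14 and 8. These are 66.2% of the members for mature replicate 3, against 35.3% of all genes tested. With library totals alone, mature replicate 3 was highest for 25 members and mature replicate 1 for 30, and the share for mature replicate 3 was 38.5% of the members, against 23.6% of all genes tested. DRC7 had the largest coefficient of variation of the members in mature testes, 37.3%, with 183 CPM in mature replicate 3 and 104 and 97.1 CPM in mature replicates 1 and 2.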

How the data were processed

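The authors' deposited gene table holds raw counts per gene and library. Per the study's methods, reads passed Fast-QC and were placed on Btau_5.0.1 by Hisat2. Tool versions, the counting program, its use of strand and the gene models were not given in the sources used here. Small RNA pools and the authors' deposited comparison tables (signals, log2 fold changes and EBSeq FDR) were not used. 0 data columns of the count table were left unused.

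The test was edgeR 4.0.16 under R 4.3.3, by quasi-likelihood with robust fits, TMM factors and filterByExpr by group, with limma 3.58.1 and DESeq2 1.42.0 as alternatives. Of 30983 genes 28656 had a count and 19972 were tested, and p-values were adjusted over all of them by Benjamini-Hochberg. A call needed an adjusted p under 0.05 and a log2 fold change beyond 1 in either direction. Dividing the log2 fold change by the root of F gave the SE. The scripts were tested on simulated data.

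Members and lists were chosen with earlier results of these data known. Values in every library are given per role group for the 2 members highest in mature testes by mean CPM, the 2 with the largest absolute log2 fold change, and each lower or uncalled member. From further lists at most 3 genes per direction and the transcription regulators are named. Others named (DRC3, C2CD3, FBF1, RSPH3, CFAP206, RSPH14, CFAP74, CFAP54, CFAP100, SPAG11B, WDR19, MKKS, KIF3C and the ratio pairs) were chosen after their values were seen. CFAP20 was moved to the inner doublet group after its values were seen. The duct markers and TUBB4B, given by library, were also named after their values were seen. Gene overlaps are from RefSeq on ARS-UCD2.0, another build than that of the counts, in which 65 of 65 members matched and 36 overlap another gene. Neighbours were used by name only, with no coordinates. The alternatives were other scalings, filters, tools and thresholds, each library left out, and the replicate number as a block. The values of 1 transition zone gene are not reported here.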

Additional observations from a re-analysis of the deposited data

How the results depend on the processing

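The number of members called higher stayed between 52 (upper-quartile factors) and 61 (no fold threshold), with 1 lower throughout, and leaving out single libraries gave 56 to 57 higher. The median log2 fold change of the members ran from 2.38 to 2.72. Over all genes tested, deviations of same-numbered libraries correlated at −0.03, −0.02 and −0.01. No pairing by replicate number showed, although a link that touches few genes could be missed. The fit with the replicate number as a block called 57 higher and 1 lower. Without immature replicates 1 and 3, an alternative chosen after seeing the data, 56 were higher; that fit has 1 immature library, which is assumed to vary like the mature ones. The log2 fold change of IFT46 was −0.068 and that of RSPH4A was −0.024 with upper-quartile factors, and that of RSPH4A ran from −0.084 (without immature replicate 2) to 0.55 when single libraries were left out. Among the groups, 1 of the 2 BBSome assembly genes kept its call with upper-quartile factors, with glmTreat and without immature replicates 1 and 3. The IFT motors had 1 gene called lower with upper-quartile factors, with no fold threshold and without immature replicates 1 and 3, and the IFT and BBS subunits with other names had 2 with no fold threshold. Genes of the transition zone called lower were 1 with relative log expression factors, DESeq2, no filter and glmTreat, and 1 to 2 when single libraries were left out. The cause was not tested. Depth limits CFAP58, CFAP73, CFAP77, DRC7, RSPH1, RSPH4A, RSPH6A and SPAG6, which had under 30 counts over a group.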
